A study of Mus musculus with 8 samples.

Results

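The Slc25 family of mitochondrial carriers was followed in the livers of 8 mice. Its members were taken as all genes whose mouse symbol is Slc25a with a number, found through the RefSeq accession of each non-control probe. This gave 56 of 39429 probes and 47 genes. Of these, 44 passed a filter that asked for signal well above background on 2 or more of the 8 arrays, and they entered the fit among 15862 genes. Slc25a41, Slc25a43 and Slc25a54 did not pass that filter and have no value. Members whose genes carry other symbols, such as the uncoupling proteins Ucp1 to Ucp3, fall outside the rule and are given further down.

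RNA from whole liver was measured on 1-colour Agilent arrays, 1 array per mouse, in 4 groups of 2. AKP::Keap1 mice, 2 males and 2 females, carry liver-specific expression of an activated oncogene and of mutant p53 (R172H) together with a deletion of Keap1. AKP mice, 2 males and 2 females, carry the same oncogene and mutant p53 without the Keap1 deletion, so that every group has both and no group is a normal liver. Age and the promoter that drives the alleles are not given in the sources used here. Keap1 is the adaptor that marks the transcription factor Nrf2 for degradation, and the series is about its loss in a mouse model of bile duct cancer.

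Slc25 proteins sit mostly in the inner mitochondrial membrane and exchange metabolites between cytosol and matrix. They carry ADP and ATP, phosphate, citrate and other carboxylates, amino acids, acylcarnitines and cofactors. In hepatocytes they link the cytosolic and mitochondrial steps of the urea cycle, of fatty acid oxidation and of the malate-aspartate shuttle, which moves reducing equivalents into mitochondria.

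Levels are log2 signal minus the 75th percentile of the array, so a level of 0 equals that percentile, and differences are AKP::Keap1 minus AKP. Levels of different genes come from different probes and are not set against each other. A gene is called when limma's Benjamini-Hochberg adjusted p over all 15862 genes is below 0.05. Errors of differences are standard errors of that fit.

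Between 65.7% and 70.7% of spots were well above background per array, no non-control spot was saturated, and replicates correlated across genes at 0.990 to 0.992. Keap1 had levels of -1.35 and -1.40 in AKP::Keap1 males, against 1.83 and 2.14 in AKP males. In females it had -0.52 and -0.72 in AKP::Keap1, against 1.68 and 1.77 in AKP. Each group lies on a slide of its own, and females and males were scanned on different days, so slide and group cannot be told apart. Hepatocyte markers, 8 of 8 detected, had a summed level, in multiples of the array's 75th percentile signal, of 1213 to 1582 in AKP::Keap1 livers and 1505 to 2247 in AKP livers. Of the 8, 3 were called lower by genotype, 5 in males and 1 in females, and 0 were called higher. Bile duct markers, 8 of 8 detected, summed to 32.8 to 78.5 in AKP::Keap1 livers and 3.36 to 9.21 in AKP livers. The 6 markers of proliferating cells were all called higher, with sums of 2.76 to 8.07 in AKP::Keap1 livers and 0.918 to 1.46 in AKP livers. Of 6 T and B cell markers 2 were called higher, and of 3 pancreatic acinar markers that passed the filter 1 was called higher and 1 lower. By genotype over both sexes, none of the erythroid (4 of 8 tested), adipose (2 of 6) and macrophage (5 of 6) markers was called by limma, although the adipose marker Cfd was called higher in AKP::Keap1 males (4.83, adjusted p = 0.022). By sex, Cfd, Cidec and the erythroid Alas2 were called lower, and the macrophage markers Adgre1 and Clec4f higher, in females. Acta1, called higher, was the only muscle marker of 6 to pass the filter. In whole tissue, fewer cells of a type and less RNA per cell cannot be told apart, and the part of these shifts in the carrier results was not tested.

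By genotype, averaged over the sexes, 16 of 44 Slc25 genes were called, which is 36.4% against 39.2% of all genes tested. Of them 6 were higher in AKP::Keap1 livers (13.6%, against 22% of all genes) and 10 were lower (22.7%, against 17.2% of all genes). The share of called carriers was thus close to that of all genes. Among the 40 carriers well above background on every array, which leaves out Slc25a2 and Slc25a53, 15 were called, 5 higher and 10 lower (37.5%, against 41.2% of all genes so filtered). The median difference was -0.25 over the carriers and 0.00 over all genes. The split moved with the scaling. Centring each array on its median instead took the median of all genes to -0.25, with 3 carriers higher and 24 lower (2397 and 6376 of all genes). With unscaled signals, where the median of all genes was 0.31, 12 were higher and 6 lower (5733 and 647 of all genes). With normexp, where that median was -0.12, 4 were higher and 16 lower (2202 and 3953 of all genes). Quantile normalization, where the median of all genes was -0.01, gave 4 higher and 8 lower (2984 and 2848 of all genes). At least 2-fold, 1 carrier was called higher and 3 lower, against 12% of all genes in either direction. Slc25a2, which passed the filter only through the AKP arrays, is among these 3 and among the 10 lower. The 28 carriers not called ranged from -1.08 (Slc25a18) to 0.26 (Slc25a40). A random block for the slide was fitted with additive terms for genotype and sex, in place of 1 mean per group. Each group has its own slide, so this block cannot separate slide from a difference in genotype response between the sexes. The additive fit left 9 calls (20.5%, against 20.8% of all genes). Of these, 3 were higher (Slc25a4, Slc25a24 and Slc25a35) and 6 lower (Slc25a2, Slc25a13, Slc25a15, Slc25a20, Slc25a30 and Slc25a32).

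**Figure D1:**
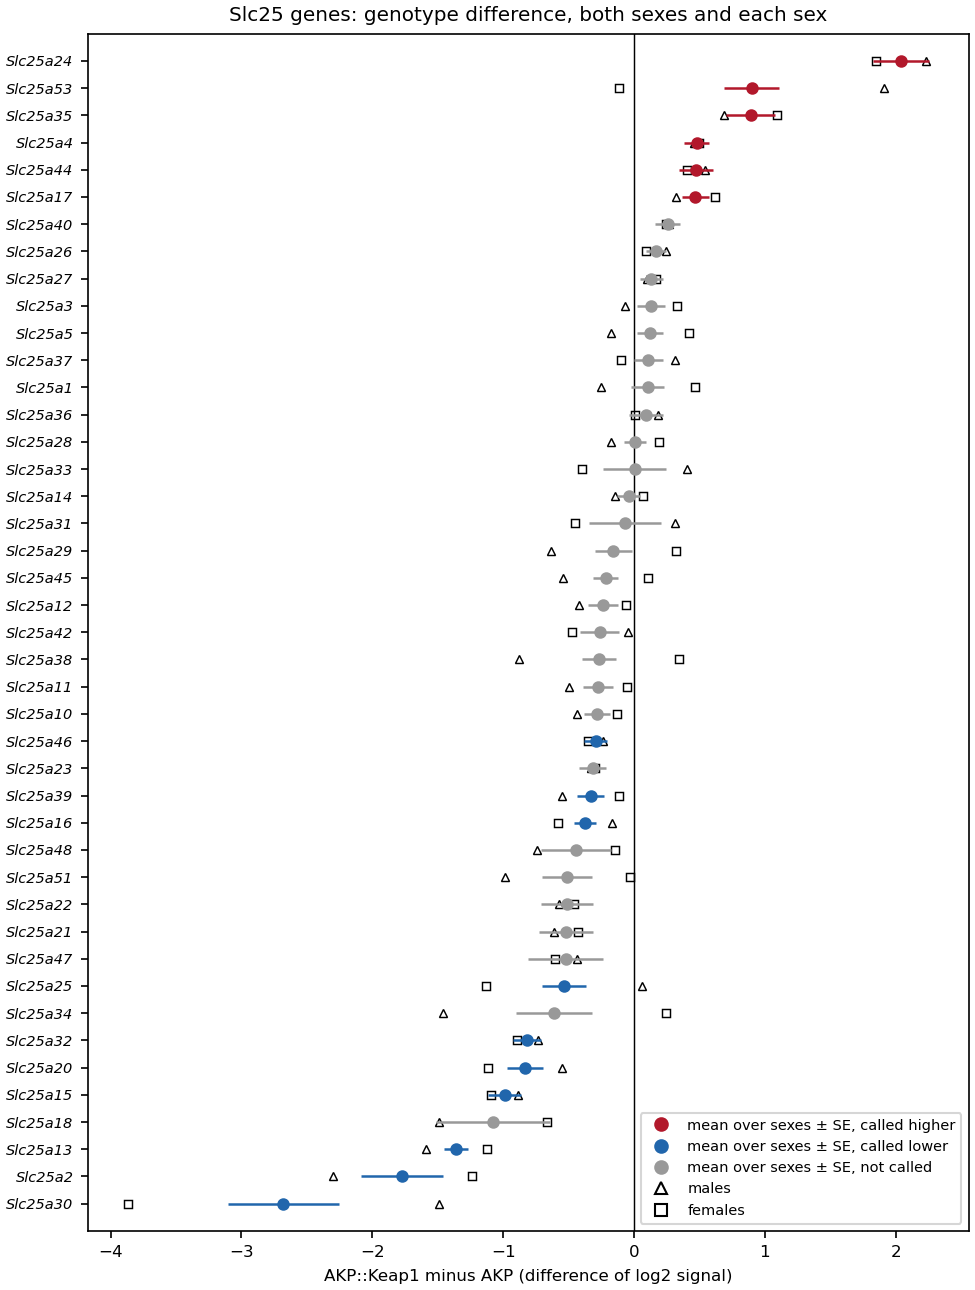
Difference in log2 signal, AKP::Keap1 minus AKP, for the tested Slc25 genes reported here, ordered by the mean over both sexes. Filled circles are the mean over the sexes with its SE (red called higher, blue called lower, grey not called), open triangles the males and open squares the females; Slc25a24 lies highest at 2.04 and Slc25a30 lowest at -2.68.

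The aspartate and ornithine carriers of the urea cycle were lower in AKP::Keap1 livers. Slc25a13, or citrin, exports aspartate from mitochondria in exchange for glutamate and is the main such carrier of liver, serving both the urea cycle and the malate-aspartate shuttle. Its level was 2.07 and 1.85 in AKP::Keap1 males, against 3.53 and 3.57 in AKP males. In females it was 1.95 and 2.08 in AKP::Keap1, against 3.20 and 3.08 in AKP. The 4 AKP::Keap1 livers lay close together and below every AKP liver. The difference was -1.36 ± 0.09, or 2.57-fold lower (adjusted p = 0.00064). Males had -1.59 ± 0.13 (adjusted p = 0.0017) and females -1.13 ± 0.13 (adjusted p = 0.0057). Its close relative Slc25a12, or aralar, the form of muscle and brain, was not called (-0.24 ± 0.12, adjusted p = 0.15).

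Slc25a15, which exchanges cytosolic ornithine for mitochondrial citrulline, had levels of -1.15 and -1.33 in AKP::Keap1 males, against -0.54 and -0.18 in AKP males. In females it had -0.60 and -0.86 in AKP::Keap1, against 0.44 and 0.29 in AKP. No AKP::Keap1 liver reached the AKP range, although the highest of them, female 1, came close to AKP male 1. The difference was -0.99 ± 0.12 (adjusted p = 0.0028), with -0.88 ± 0.18 in males (adjusted p = 0.018) and -1.10 ± 0.18 in females (adjusted p = 0.012). It was also higher in females than in males, by 0.62 ± 0.12 over both genotypes (adjusted p = 0.023). Slc25a2, a second ornithine carrier, was not well above background on any AKP::Keap1 array but was so on all 4 AKP arrays. Its measured levels were -8.84 and -7.63 in AKP::Keap1 males, against -5.98 and -5.89 in AKP males, and -7.09 and -7.58 in AKP::Keap1 females, against -6.48 and -5.70 in AKP females. With the dim side raised to the lowest signal well above background on each array, Slc25a2 was at least 1.63-fold lower in AKP::Keap1 livers. It passed the filter only through the AKP arrays, where it is high, so its call is no support for a difference.

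The urea cycle enzymes that these carriers serve were called lower by genotype in 4 of 6 cases, against 17.2% of all genes, none was called higher, and the list had a median of -0.50. Cps1, which makes carbamoyl phosphate in the matrix, had -1.23 ± 0.20 (adjusted p = 0.006), and Arg1, which releases ornithine in the cytosol, had -0.54 ± 0.13. Otc, which joins ornithine and carbamoyl phosphate, was not called (-0.36 ± 0.15, adjusted p = 0.11). In males 5 of the 6 enzymes were called lower, against 11.5% of all genes, and in females 1 was, against 9.07% of all genes. The difference between the sexes was itself called for 0 of the 6, against 1.94% of all genes. Cps1 and Ass1 of this list are also among the hepatocyte markers.

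Slc25a20 brings acylcarnitines into the matrix for fatty acid oxidation. Its level was 0.74 and 0.47 in AKP::Keap1 males, against 1.18 and 1.14 in AKP males. In females it was 0.74 and 0.62 in AKP::Keap1, against 1.54 and 2.05 in AKP. All 4 AKP::Keap1 livers lay below every AKP liver. The difference of -0.83 ± 0.14 (adjusted p = 0.0063) was -1.12 ± 0.20 in females (adjusted p = 0.015) and -0.55 ± 0.20 in males, where it was not called (adjusted p = 0.08). The difference between the sexes was itself not called (-0.56 ± 0.28, adjusted p = 0.28). Of 8 enzymes of the carnitine shuttle and the beta-oxidation steps that follow it, 6 were called lower, against 17.2% of all genes, and 0 higher, against 22% of all genes, with a median of -0.57. Cpt1a, which forms acylcarnitines at the outer membrane, had -0.73 ± 0.14, and Cpt2, which splits them again in the matrix, had 0.05 ± 0.11 and was not called (adjusted p = 0.74).

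Slc25a32, the carrier of folate into mitochondria, was called lower in both sexes. Levels were -1.13 and -1.01 in AKP::Keap1 males, against -0.23 and -0.44 in AKP males, and -0.88 and -1.13 in AKP::Keap1 females, against -0.18 and -0.04 in AKP females. The difference was -0.82 ± 0.11 (adjusted p = 0.0031), with -0.74 ± 0.15 in males (adjusted p = 0.019) and -0.90 ± 0.15 in females (adjusted p = 0.013), and no AKP::Keap1 liver reached the range of the AKP livers.

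**Figure D2:**
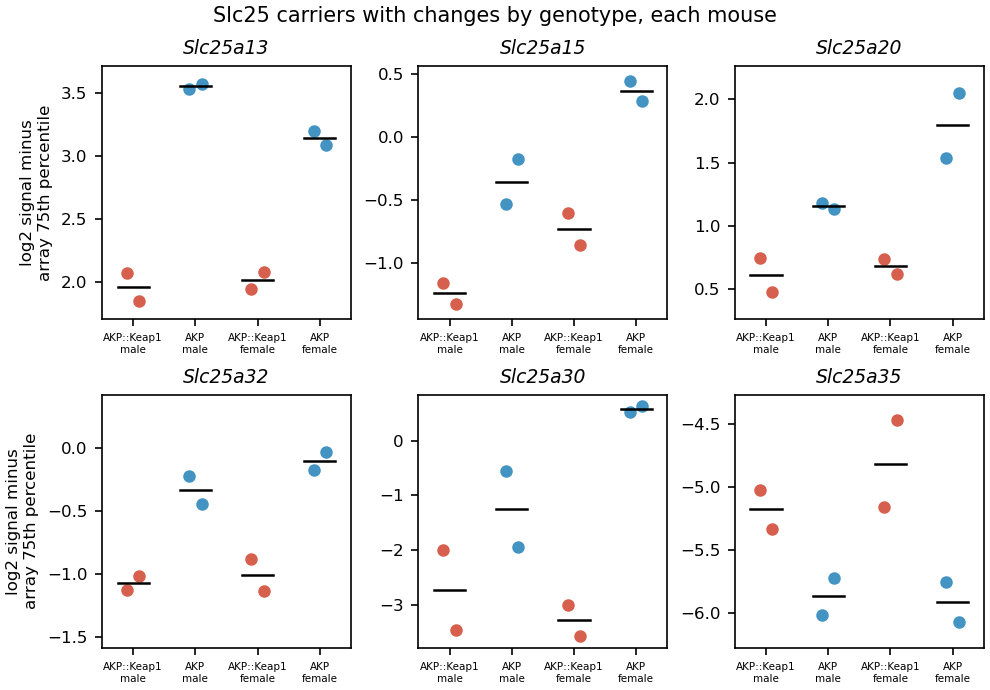
Level (log2 signal minus the array's 75th percentile) of 6 Slc25 genes in each mouse, by group, AKP::Keap1 in red and AKP in blue, with the group mean as a line. Slc25a13, Slc25a15, Slc25a20, Slc25a32 and Slc25a30 lie lower, and Slc25a35 higher, in AKP::Keap1 livers within each sex; the vertical scale differs between panels.

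Slc25a30, a relative of the uncoupling proteins first described in kidney, had the largest fall over both sexes and in females among carriers well above background on all 8 arrays. Its level was -2.01 and -3.47 in AKP::Keap1 males, against -0.55 and -1.94 in AKP males. In females it was -3.00 and -3.57 in AKP::Keap1, against 0.53 and 0.63 in AKP. The AKP females were the 2 highest livers, and males of each genotype spread over more than 1 log2 unit. The mean difference was -2.68 ± 0.43 (adjusted p = 0.0054), or 6.41-fold lower. In females it was -3.87 ± 0.60 (14.6-fold lower, adjusted p = 0.011), and in males, where AKP::Keap1 male 1 and AKP male 2 were almost equal, it was -1.49 ± 0.60 and not called (adjusted p = 0.11). The female call ended without AKP::Keap1 female 2 (-3.58, adjusted p = 0.052) and without AKP female 2 (-3.82, adjusted p = 0.062). The interaction, the female minus the male difference, was -2.37 ± 0.85 and not called (adjusted p = 0.17). Its relatives Slc25a14 (-0.04 ± 0.09, adjusted p = 0.75) and Slc25a27 (0.13 ± 0.09, adjusted p = 0.26), 2 uncoupling protein relatives known from brain, were not called. Of the carrier family proteins with other symbols, Ucp2 was called higher (0.76 ± 0.24, adjusted p = 0.045) and the outer membrane insertase Mtch2 lower (-0.42 ± 0.12, adjusted p = 0.033). Ucp3 (0.70 ± 0.24) and Mtch1 (0.22 ± 0.10) were not called, and Ucp1, the uncoupler of brown fat, did not pass the filter.

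Of the 6 adenine nucleotide carriers tested, 2 were called higher, 1 lower and 3 were not called, where 22% of all genes were called higher and 17.2% lower. Slc25a24, a calcium-regulated carrier that exchanges ATP-Mg for phosphate and so sets the size of the matrix nucleotide pool, had the largest rise of any carrier tested, over both sexes and in each. Its level was 0.14 and 0.11 in AKP::Keap1 males, against -2.23 and -1.99 in AKP males. In females it was -0.43 and 0.41 in AKP::Keap1, against -1.62 and -2.10 in AKP. Every AKP::Keap1 liver lay above every AKP liver by more than 1 log2 unit. The difference was 2.04 ± 0.21 (adjusted p = 0.0018), or 4.11-fold higher, with 2.23 ± 0.30 in males (adjusted p = 0.0066) and 1.85 ± 0.30 in females (adjusted p = 0.012). Without AKP female 2 the female value was 1.61 (adjusted p = 0.068).

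Slc25a25, a paralog with the same activity, was called lower (-0.54 ± 0.17, adjusted p = 0.047), a call that 12 of 19 alternatives ended. Levels were 3.92 and 3.82 in AKP::Keap1 males, against 4.12 and 3.52 in AKP males, and 3.71 and 3.78 in AKP::Keap1 females, against 4.66 and 5.10 in AKP females. The groups overlapped in males (0.06 ± 0.24) and were apart in females (-1.13 ± 0.24, adjusted p = 0.024), and a second probe gave 0.02 in males and -1.51 in females. The third paralog, Slc25a23, had -0.32 ± 0.10 and was not called (adjusted p = 0.052). Of the ADP/ATP translocases, which trade matrix ATP for cytosolic ADP, Slc25a4 was called higher. It had 3.92 and 3.82 in AKP::Keap1 males, against 3.52 and 3.29 in AKP males, and 3.77 and 3.74 in AKP::Keap1 females, against 3.36 and 3.16 in AKP females. Its difference was 0.48 ± 0.10 (adjusted p = 0.011), and 0.23 with arrays centred on their medians (adjusted p = 0.081). Slc25a5 was not called (0.12 ± 0.10, adjusted p = 0.37), with opposite signs in males (-0.18 ± 0.14) and females (0.42 ± 0.14). Slc25a31, the form of germ cells, was well above background on 4 of 8 arrays and was not called.

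**Figure D3:**
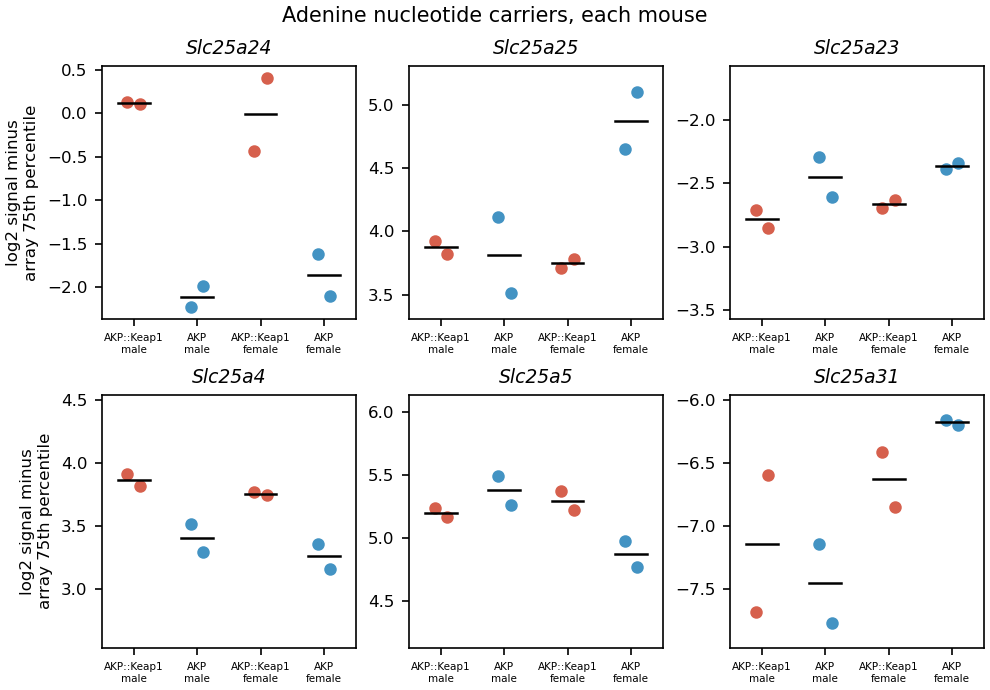
Level (log2 signal minus the array's 75th percentile) of the 6 adenine nucleotide carriers tested in each mouse, by group, AKP::Keap1 in red and AKP in blue, with the group mean as a line. Slc25a24 and Slc25a4 lie higher in AKP::Keap1 livers of both sexes, and Slc25a25 lies lower in females while its groups overlap in males; the vertical scale differs between panels.

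The 250 bases upstream of the annotated start are shown for Slc25a30, for Slc25a24 and for its paralog Slc25a25, which was called lower in females. They are printed from RefSeq, build GRCm38.p6, 5′ to 3′ on the strand of the gene, at chr14:75787038-75787287 (minus strand, Slc25a30), chr3:109122899-109123148 (plus strand, Slc25a24) and chr2:32451471-32451720 (minus strand, the first of 3 starts of Slc25a25). These windows are shown because their genes carry those results. Capitals mark matches to TGACNNNGC, the core of the antioxidant response element that Nrf2 binds, on either strand.
Slc25a30: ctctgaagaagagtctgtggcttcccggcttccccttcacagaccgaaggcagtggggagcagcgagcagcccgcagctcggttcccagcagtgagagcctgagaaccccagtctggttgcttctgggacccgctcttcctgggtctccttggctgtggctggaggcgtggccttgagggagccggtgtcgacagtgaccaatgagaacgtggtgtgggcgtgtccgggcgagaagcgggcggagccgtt
Slc25a24: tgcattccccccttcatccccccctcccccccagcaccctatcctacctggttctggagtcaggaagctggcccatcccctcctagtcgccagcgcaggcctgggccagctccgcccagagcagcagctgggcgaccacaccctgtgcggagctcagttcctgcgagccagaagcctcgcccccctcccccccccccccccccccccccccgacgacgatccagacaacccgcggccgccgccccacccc
Slc25a25: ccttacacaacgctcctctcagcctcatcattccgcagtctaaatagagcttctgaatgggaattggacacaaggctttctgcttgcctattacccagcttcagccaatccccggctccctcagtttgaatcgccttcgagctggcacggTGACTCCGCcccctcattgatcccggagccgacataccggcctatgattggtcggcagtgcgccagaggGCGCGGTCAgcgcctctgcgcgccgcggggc
The printed window of Slc25a25 holds 2 matches, the windows of its other 2 starts hold none, and those of Slc25a24 and Slc25a30 hold none. A window was found for 36 of the 47 genes, with any of a gene's annotated starts counted, and 7 of the 36 held a match (19.4%), against 11.5% of 27025 genes of all kinds with windows of the same length. These were Slc25a3, Slc25a5, Slc25a14, Slc25a23, Slc25a25, Slc25a33 and Slc25a38. Of these 7, 0 were called higher by genotype and 1, Slc25a25, was called lower, against 22% and 17.2% of all genes. The element of estrogen-related receptors (TCAAGGTCA) was in 0 of the 36 and in 0.422% of all genes with a window. The direct repeat bound by PPAR was in 0 of the 36 and in 0.0407% of all genes, and the element of nuclear respiratory factor 1 was in 0 of the 36 and in 0.877% of all genes. Overlaps between motifs were allowed.

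Of the remaining carriers of amino acids and glutathione, Slc25a44, which takes branched-chain amino acids into mitochondria, was called higher (0.47 ± 0.13, adjusted p = 0.032), but a second probe for it gave -0.52, so its direction rests on the probe. Slc25a39, needed for glutathione import into mitochondria, was called lower (-0.33 ± 0.10, adjusted p = 0.045), and its paralog Slc25a40 was not called (0.26 ± 0.10, adjusted p = 0.078). The Slc25a39 call ended under 12 of 19 alternatives. The glutamate carriers Slc25a22 (-0.51 ± 0.20, adjusted p = 0.084) and Slc25a18 (-1.08 ± 0.44, adjusted p = 0.095, well above background on 4 of 8 arrays) were not called. Slc25a47, known for its restriction to liver, ranged from 4.45 to 5.72 in AKP::Keap1 livers and from 5.20 to 5.99 in AKP livers and was not called (-0.52 ± 0.29, adjusted p = 0.19). The basic amino acid carrier Slc25a29 (-0.16 ± 0.14) and Slc25a48 (-0.44 ± 0.27) were not called. In the whole role group of 14 genes, 1 was called higher, 4 lower and 9 were not called. Of all genes, 22% were called higher and 17.2% lower. Slc25a2, which passed the filter only through the AKP arrays, is among the 4.

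Carriers of carboxylates showed 1 call by genotype in 6 genes, against 39.2% of all genes. Slc25a35, whose substrate is less well known, had levels of -5.03 and -5.33 in AKP::Keap1 males, against -6.01 and -5.72 in AKP males, and -5.16 and -4.47 in AKP::Keap1 females, against -5.75 and -6.07 in AKP females. The AKP::Keap1 livers all lay above the AKP livers, by 0.89 ± 0.19 (adjusted p = 0.013). The probe is of low signal, and normexp background correction gave -0.0088. The related Slc25a34 was called in males alone, with -0.61 and -1.56 in AKP::Keap1 males, against 0.30 and 0.46 in AKP males (-1.46 ± 0.41, adjusted p = 0.043). In females Slc25a34 had -0.30 and -0.25 in AKP::Keap1, against -0.01 and -1.02 in AKP, and the genotypes overlapped (0.24 ± 0.41). Without AKP::Keap1 male 2 its male difference was -0.99 (adjusted p = 0.17). The citrate carrier Slc25a1 (0.11 ± 0.13), the dicarboxylate carrier Slc25a10 (-0.28 ± 0.10), the oxoglutarate carrier Slc25a11 (-0.27 ± 0.11) and the oxodicarboxylate carrier Slc25a21 (-0.52 ± 0.21) were not called. Among 10 enzymes of the citrate, malate-aspartate and glycerol phosphate shuttles, 4 were called lower (17.2% of all genes were) and 0 higher (median -0.28). They include the glycerol phosphate shuttle enzyme Gpd2 (-1.29 ± 0.20, adjusted p = 0.0053) and the citrate-splitting enzyme Acly (-0.78 ± 0.18). In males 5 of the 10 were called lower (median -0.44), against 11.5% of all genes. In females 1 was called lower (median 0.07), against 9.07% of all genes. The interaction was called for 0 of the 10, against 1.94% of all genes.

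Of the 9 cofactor and nucleotide carriers, Slc25a17 was called higher (0.47 ± 0.11, adjusted p = 0.016) and Slc25a16 and Slc25a32 lower. Of all genes, 22% were called higher and 17.2% lower. Slc25a17 lies in peroxisomes, where it carries CoA, FAD and NAD, and it was lower in females than in males (-0.52 ± 0.11, adjusted p = 0.023). Slc25a16, linked to mitochondrial CoA, had -0.38 ± 0.08 (adjusted p = 0.016), mostly from females (-0.58 ± 0.12, adjusted p = 0.021, against -0.17 ± 0.12 in males), a difference between the sexes that was not called (adjusted p = 0.21). The S-adenosylmethionine carrier Slc25a26 (0.17 ± 0.08, second probe -0.04), the pyrimidine nucleotide carrier Slc25a33 (0.01 ± 0.24, second probe -0.15) and the CoA carrier Slc25a42 (-0.26 ± 0.15) were not called. The phosphate carrier Slc25a3, which feeds ATP synthase, had 4.66 and 4.68 in AKP::Keap1 males, against 4.89 and 4.59 in AKP males, and 4.70 and 4.50 in AKP::Keap1 females, against 4.33 and 4.22 in AKP females. It was not called (0.13 ± 0.11, adjusted p = 0.36), and its second probe gave -0.25. The mitoferrins Slc25a28 and Slc25a37, which carry iron, were not called either (0.01 ± 0.08 and 0.11 ± 0.11), and a dimmer probe for Slc25a37 gave 1.10. Slc25a46, an outer membrane protein involved in mitochondrial shape, was called lower by -0.29 ± 0.09 (adjusted p = 0.044), a call that 11 of 19 alternatives ended.

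In males 12 of 44 carriers were called, 3 higher and 9 lower, which is 27.3% against 28.4% of all genes (16.9% higher and 11.5% lower). This split turned with the scaling, for carriers and for all genes. With unscaled signals 11 carriers were higher and 2 lower (5436 and 171 of all genes). Centring on the median gave 2 higher and 28 lower (1738 and 6524 of all genes). Quantile normalization gave 5 higher and 8 lower (1785 and 1456 of all genes). At least 2-fold, 2 were higher and 3 lower, against 13.2% of all genes. Slc25a2, which passed the filter only through the AKP arrays, is among these 3 and among the 9 lower in males. In females 11 were called, 4 higher and 7 lower, which is 25% against 21.4% of all genes (12.3% higher and 9.07% lower). The female split was 1 higher and 6 lower with unscaled signals (1731 and 657 of all genes). It was 2 and 8 with centring on the median (1468 and 2176 of all genes). With quantile normalization it was 2 and 9 (1772 and 1689 of all genes). At least 2-fold, 2 were higher and 5 lower, against 10.4% of all genes. In both sexes 5 of 44 carriers were called, each in one direction, against 1754 of 15862 genes called in both. Slc25a4 and Slc25a24 were higher and Slc25a13, Slc25a15 and Slc25a32 lower. Both Slc25a4 calls stood at an adjusted p of 0.049. The counts per sex depended on single arrays. With 1 array of a sex left out, fewer carriers and fewer of all genes were called in that sex. The median difference of the carriers then ranged from -0.38 to -0.17 in males and from -0.12 to -0.02 in females. Without overlap of arrays within each sex, 7 carriers were higher in AKP::Keap1 (15.9%, against 21.4% of all genes). Lower were 11 (25%, against 17.4% of all genes), Slc25a2 among them. Male and female differences had the same sign for 29 of 44 carriers (65.9%, against 68.8% of all genes). Across the 44 carriers they correlated at r = 0.58 (rho 0.50), a description over genes that share arrays.

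Carriers called in males alone were Slc25a2, Slc25a34, Slc25a38, Slc25a39, Slc25a45, Slc25a51 and Slc25a53. Slc25a2 passed the filter only through the AKP arrays, so its call is no support for a difference. Slc25a38, which supplies glycine for heme synthesis, had 2.26 and 1.79 in AKP::Keap1 males, against 2.90 and 2.91 in AKP males (-0.88 ± 0.18, adjusted p = 0.019). In females it had 2.28 and 2.25 in AKP::Keap1, against 2.03 and 1.80 in AKP (0.35 ± 0.18, adjusted p = 0.21). Slc25a53, with no assigned substrate, had -5.29 and -5.98 in AKP::Keap1 males, against -7.47 and -7.62 in AKP males, where neither array was well above background. It was therefore at least 1.89-fold higher in AKP::Keap1 males (adjusted p = 0.0099), and it was also called over both sexes (0.90 ± 0.21, adjusted p = 0.019). In females it had -6.75 and -6.56 in AKP::Keap1, against -6.21 and -6.88 in AKP, with 1 of 2 arrays of each genotype well above background. Normexp background correction turned the male difference of Slc25a53 to -0.41 (adjusted p = 0.061). Slc25a45, of the amino acid role group, had -0.54 ± 0.14 in males (adjusted p = 0.032) and 0.11 ± 0.14 in females. The NAD carrier Slc25a51 had -0.99 ± 0.27 in males (adjusted p = 0.041) and -0.03 ± 0.27 in females. Its second probe gave -0.45 in males and -0.23 in females, so the contrast between the sexes was smaller there.

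The genotype by sex interaction was called for 0 of 44 carriers by limma, against 1.94% of all genes, and against 1.9% at 2-fold or more. At an unadjusted limma p below 0.05 there were 12 of 44 carriers, and 3687 of 15862 genes. The smallest adjusted p-values were 0.072 for Slc25a38 (1.23 ± 0.25) and 0.073 for Slc25a53 (-2.02 ± 0.42). Under other settings Slc25a38 was called with normexp (adjusted p = 0.039), with arrays centred on their medians (adjusted p = 0.039) and with a trend and robust variance model (adjusted p = 0.037), Slc25a25 with normexp and Slc25a45 with centring on the median. A difference in genotype response between the sexes was thus not shown for any carrier in the fit as designed.

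By sex, averaged over the genotypes, 5 of 44 carriers were called (11.4%, against 21.3% of all genes, 10.9% higher and 10.4% lower in females). None reached 2-fold, against 5.48% of all genes. Slc25a15 and the pyrimidine nucleotide carrier Slc25a36 (0.70 ± 0.13, adjusted p = 0.019) were higher in females than in males. Of the 3 carriers lower in females, Slc25a17 is given above and the mitoferrin Slc25a37 had -0.48 ± 0.11 (adjusted p = 0.03). With the slide as a random block 0 of the 44 were called by limma, against 5 without the block, and 1.99% of all genes were called. Without the block 13 carriers had an unadjusted limma p below 0.05, as did 6194 of 15862 genes. Unscaled signals gave 0 higher and 6 lower in females (613 and 3116 of all genes). Centring on the median gave 2 and 8 (1278 and 2792 of all genes), and quantile normalization 4 and 5 (1539 and 1504). With any 1 array left out, fewer carriers and fewer of all genes were called by sex. The median sex difference of the carriers then ranged from -0.07 to 0.01.

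Genes of the mitochondria at large were set beside the carriers. Of 16 genes chosen for mitochondrial content, mostly respiratory chain subunits, 5 were called lower by genotype, against 17.2% of all genes, and 0 higher, with a median of -0.26, close to the -0.25 of the carriers. In males 9 of the 16 were called lower (median -0.50), against 11.5% of all genes, and in females 0 (median -0.04), against 9.07% of all genes. The interaction was called for 0 of the 16, against 1.94% of all genes. Of 11 genes of the machinery that brings carrier proteins to the inner membrane, 5 were called lower by genotype, against 17.2% of all genes. They include the chaperones Timm8a1 (-0.53 ± 0.09) and Timm9 (-0.51 ± 0.10), 0 were called higher, and the median was -0.28. In males 5 of the 11 were called lower (median -0.45), against 11.5% of all genes. In females 2 were called lower and 1 higher (median 0.06), against 9.07% and 12.3% of all genes. The interaction was called for 0 of these 11 as well. The outer membrane channels Vdac1, Vdac2 and Vdac3 were not called. Among 11 other inner membrane transporters, 2 were called higher and 2 lower, against 22% and 17.2% of all genes. Sfxn3, of the sideroflexin family (1.97 ± 0.21, adjusted p = 0.002), and Sfxn4 (0.84 ± 0.16) were higher. The pyruvate carrier subunit Mpc2 (-0.47 ± 0.11) was among those lower. Ppargc1a, a coactivator of mitochondrial genes, was lower by genotype (-1.87 ± 0.29, adjusted p = 0.0052) and in males (-2.52 ± 0.42, adjusted p = 0.011), with -1.21 ± 0.42 in females (adjusted p = 0.085). Of the 8 regulators in that list, of which Tfam is also in the content list, 3 were called lower and 0 higher. Of 8 genes of iron and heme handling 2 were called lower and 0 higher. Over all genes 17.2% were called lower and 22% higher. Other scalings, under which the male split of all genes turned, were not run on any of these gene lists.

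**Figure D4:**
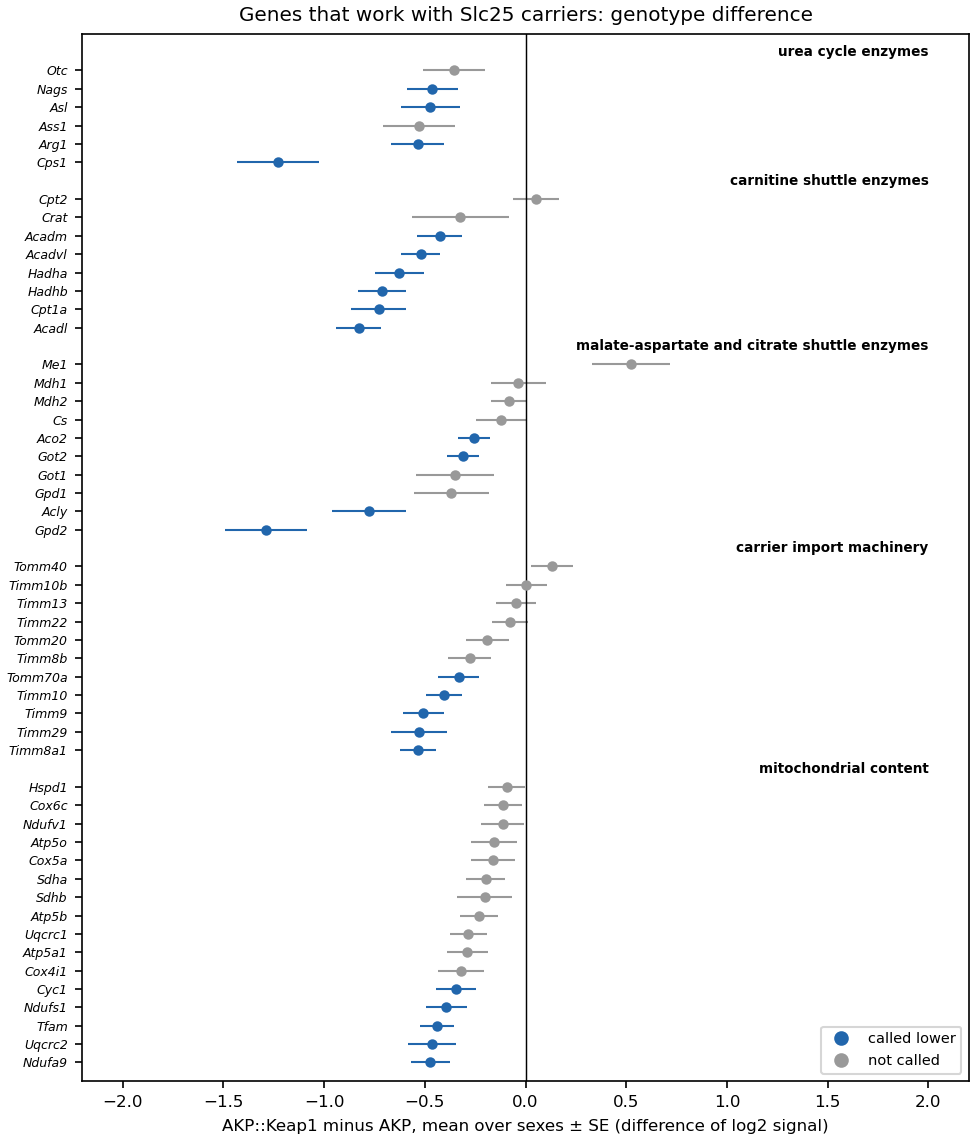
Difference in log2 signal, AKP::Keap1 minus AKP, averaged over the sexes with its SE, for 5 lists of genes that work with Slc25 carriers (blue called lower, grey not called). The malate-aspartate and citrate list also holds the glycerol phosphate shuttle enzymes Gpd1 and Gpd2. No gene of the 5 lists was called higher in this average over the sexes, and Gpd2 at -1.29 and Cps1 at -1.23 lie lowest.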

How the data were processed

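Each scanner file, 1 per mouse, lists spot intensity after background subtraction by Agilent Feature Extraction, the deposited unit used here. The version is 10.7.3.1 per the file headers and 10.1 per the submitters' processing notes. Total RNA was amplified and labelled with Cy3, per the labels. The deposited series matrix holds the same intensity values (355176 of 355176 equal within a relative 1e-05).

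Control spots and outlier spots were left out, log2 intensities were averaged per probe, and each array's 75th percentile was subtracted. RefSeq accessions without versions gave 26055 of 39429 probes a symbol, through a table of assembly GRCm38.p6. The filter asked for signal well above background on 2 or more of 8 arrays and a value in every group. For genes with several probes the brightest was taken. limma 3.58.1 in R 4.3.3 fitted 1 mean per group, two-sided. The labels number the mice without describing them further, so p-values measure the spread between these samples, and the number of arrays limits precision. The fit was tested on simulated data.

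Members, roles and lists were chosen with earlier results of these data known. Values per mouse are given for members called by genotype, over both sexes or in either, at 2-fold or more, and for the member of each role group with the smallest adjusted p; those of other members were added after their values were seen. Same-numbered arrays deviated together at correlations of -0.16 to 0.12 and were not taken as pairs. Alternatives changed background correction, scaling, filter, probe choice, outlier handling, variance model, blocks and samples. Normexp used the median signal, since no mean signal column was used here. Values of some genes are not reported here, though they remain in the counts.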

Additional observations from a re-analysis of the deposited data

How the results depend on the processing

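By genotype, 19 alternatives gave 9 to 27 called carriers. Slc25a13, Slc25a15, Slc25a20, Slc25a24, Slc25a30 and Slc25a32 were called with the same sign in all 19. The count of 16 moved to 27 with arrays centred on their medians, where 55.3% of all genes were called. It moved to 9 when the slide was a random block in the additive fit, where 20.8% of all genes were. In the main fit 39.2% of all genes were called. In males 12 became 22 with normexp and 30 after the median shift. Of all genes 28.4% became 37.4% and 52.1%. In females 11 became 7 with unscaled series matrix values, where 2388 genes in all were called against 3391. The female count became 3 in a fit to the 4 female arrays alone, which has fewer samples and where 1232 genes were called. The interaction gave 2 with normexp, 2 after the median shift and 1 with a trend and robust variance model. Of all genes these settings called 2.72%, 7.68% and 3.79%, against 1.94% in the main fit. By sex 5 became 9 after quantile normalization, 10 after the median shift and 0 when the slide was a random block. Of all genes 21.3% became 19.2%, 25.7% and 1.99%. Leaving out 1 array gave 11 to 15 by genotype, 4 to 13 in males, 1 to 9 in females, 0 in the interaction and 1 to 4 by sex. The replicate block gave 14 by genotype, 10 in males, 10 in females, 0 in the interaction and 5 by sex. Of all genes it called 35.8%, 24%, 18.6%, 0.422% and 17% in that order. A crossed pairing of the female arrays, chosen after seeing the data, gave 10 in females, with 21.3% of all genes. Signs turned for Slc25a35 (-0.0088) and Slc25a53 (-0.26, and -0.41 in males) with normexp, for Slc25a46 (0.017) with unscaled values and for Slc25a44 (-0.021) as the mean of its 2 probes, which have opposite signs. For the others the cause was not tested. Over all genes, the slide block left 3292 calls by genotype, against 6212. Probes of low signal, such as those of Slc25a2, Slc25a18, Slc25a31, Slc25a35 and Slc25a53, have uncertain sizes.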
